A study of Mus musculus with 16 samples.

Results

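The 5 genes described here are *C1galt1*, *C1galt1c1*, *Gcnt1*, *Gcnt2* and *Gcnt4*, the mouse genes grouped under the making of O-GalNAc core 1 and core 2 glycans. They were taken by gene name from the deposited table of RPKM values, where the 5 names stand for 6 of 37583 gene entries, since *C1galt1c1* has a second entry. The series holds 16 RNA libraries, a cortex and a cerebellum library from each of 8 mice, of which 4 were wild-type and 4 are labelled as *Slc39a8* A391T (A393T) mutants. All mice were of the C57BL/6J strain. The study describes its wild-type mice used for RNA as male and 12 weeks old, and the sex, age and zygosity of the A391T mice are not given in the sources used here. *Slc39a8* encodes a transporter of zinc and manganese, A391T is a missense change in it, and the wild-type mice are the controls of each region. Libraries are named as in their titles, by CTX for cortex or CBLM for cerebellum and the number of the mouse, so that CTX447 and CBLM447 came from the same animal. The wild-type cortex libraries were CTX447, CTX448, CTX479 and CTX480 and the A391T ones CTX445, CTX446, CTX461 and CTX462, with the same numbers in cerebellum.

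O-GalNAc glycans start when a polypeptide GalNAc transferase joins GalNAc to a serine or threonine of a protein in the Golgi. The T-synthase encoded by *C1galt1* then adds galactose to give core 1, and it needs the chaperone Cosmc, encoded by *C1galt1c1*, to fold in the endoplasmic reticulum. Core 2 transferases, here *Gcnt1* and *Gcnt4*, add GlcNAc to the GalNAc of core 1 and so open a branch that can be extended, whereas sialyltransferases that act first leave core 1 as a short capped chain. *Gcnt2* belongs to the same family by sequence but is known as the I-branching enzyme, which adds GlcNAc to galactose within poly-N-acetyllactosamine chains. Of the 5 genes, 3 therefore encode enzymes of the core 1 and core 2 steps, *C1galt1c1* a chaperone and *Gcnt2* an enzyme that acts on other acceptors.

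Each library held from 20813432 to 30497206 counts on genes. The titles of the count files and the column names of the RPKM table disagree for 4 mice, since the columns named for the wild-type mice of CTX447 and CTX448 hold the counts titled for the A391T mice of CTX461 and CTX462, and the reverse, in both regions. The titles were used here, and values with libraries named as in the RPKM table are given beside the genotype comparisons and where they change a call. Region names do not differ between the sources. Comparisons of cortex with cerebellum within a genotype therefore keep their regions but exchange mice with the other genotype. Comparisons of genotype rest on which source is right. Libraries matched their region by markers, with summed granule cell markers from 2261 to 2962 TPM in cerebellum and from 27.6 to 47.0 TPM in cortex. Choroid plexus markers varied widely in cerebellum, from 52.5 to 8060 TPM in wild-type and from 51.1 to 5805 TPM in A391T libraries, against 6.81 to 48.1 TPM in cortex. Summed striatal markers ran from 594 to 812 TPM in wild-type cortex and from 265 TPM in CTX461 to 907 TPM in CTX462 in A391T cortex. CTX462 also had the highest hippocampal markers of its group (141 TPM, median 97.5 TPM). Any part of these differences in the levels of the 5 genes was not tested. The A391T cerebellum library CBLM445 stood apart from its group, since its counts differed from those of the other 3 libraries by a chi-square of 62.3 to 74.5 for each degree of freedom, against 7.23 to 8.13 among these 3. It had the highest summed Purkinje cell markers of its group (8858 TPM, lowest of the group 6115 TPM) and the lowest granule cell markers. The wild-type cortex library CTX480 differed less, by 15.1 to 34.4 against 5.10 to 12.0 among the other 3, and had the lowest summed cortical excitatory neuron markers of its group (2282 TPM, median 2785 TPM) and the highest blood and endothelial markers.

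In the NCBIM37 (mm9) assembly, *C1galt1* (ENSMUSG00000042460) lies at chr6:7794842-7822047 on the plus strand and *C1galt1c1* (ENSMUSG00000048970) at chrX:35983962-35988264 on the minus strand. *Gcnt1* (ENSMUSG00000038843) lies at chr19:17400631-17431157 on the minus strand. *Gcnt2* (ENSMUSG00000021360) and *Gcnt4* (ENSMUSG00000091387) both lie on the plus strand of chromosome 13, at chr13:40955501-41056260 and chr13:97694644-97720867. No exon base of *C1galt1*, *Gcnt1* or *Gcnt4* is shared with another gene of the annotation. For *Gcnt2*, 7.69% of exon bases overlap the long noncoding RNA *A730081D07Rik* on the opposite strand. Counting ignored strand, so that reads there could not be assigned to either gene alone, and ambiguous reads stayed out of the counts. The second *C1galt1c1* entry (ENSMUSG00000091437) covers 7.25% of the exon bases of the first, held from 0 to 7 counts per library and did not pass the filter on low counts.

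RefSeq start sites of 4 of the 5 genes were found in a table of promoter windows of the GRCm38.p6 build, each 250 bases before to 50 bases after a start. *C1galt1c1* had no entry. There were 9 windows, 1 for *C1galt1*, 3 for *Gcnt1*, 3 for *Gcnt2* and 2 for *Gcnt4*, and for each gene the window with the most motif matches is shown, because the 4 genes differ in the direction of their difference between the regions. Capitals mark matches on either strand to the 5 motifs searched. The TATA box was taken as TATAAA, which 13.6% of the 32851 windows in the table hold. The GC box, to which Sp factors bind, was taken as GGGCGG and stands in 35.7% of windows. A cAMP response element, taken as TGACGTCA, is held by 1.79% of them. The E-box known from myogenic factors, CAGCTG, stands in 16.3% of windows, and the E-box known to be bound by NeuroD factors was taken as CAGATG and stands in 17.2%. The windows are *C1galt1* at chr6:7844974-7845273 (plus strand), *Gcnt1* at chr19:17372795-17373094 (minus strand), *Gcnt2* at chr13:40917384-40917683 (plus strand) and *Gcnt4* at chr13:96924463-96924762 (plus strand), written 5′ to 3′ along the gene.
C1galt1: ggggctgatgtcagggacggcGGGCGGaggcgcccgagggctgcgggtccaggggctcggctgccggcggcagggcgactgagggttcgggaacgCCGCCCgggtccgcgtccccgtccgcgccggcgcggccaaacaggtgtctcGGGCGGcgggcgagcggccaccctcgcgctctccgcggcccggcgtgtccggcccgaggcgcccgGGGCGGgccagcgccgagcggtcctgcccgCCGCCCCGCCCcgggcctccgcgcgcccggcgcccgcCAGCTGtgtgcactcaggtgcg
Gcnt1: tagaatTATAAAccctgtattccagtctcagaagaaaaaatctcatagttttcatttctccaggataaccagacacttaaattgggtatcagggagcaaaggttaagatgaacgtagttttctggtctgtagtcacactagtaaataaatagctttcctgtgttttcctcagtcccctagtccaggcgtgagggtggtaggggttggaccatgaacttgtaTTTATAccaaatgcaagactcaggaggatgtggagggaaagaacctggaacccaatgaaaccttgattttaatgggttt
Gcnt2: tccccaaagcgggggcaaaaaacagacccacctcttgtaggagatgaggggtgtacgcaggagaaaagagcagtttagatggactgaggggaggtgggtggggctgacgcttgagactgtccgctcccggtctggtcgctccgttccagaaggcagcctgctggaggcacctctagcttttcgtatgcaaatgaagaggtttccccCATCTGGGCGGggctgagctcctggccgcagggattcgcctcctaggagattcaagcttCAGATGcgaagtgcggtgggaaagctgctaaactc
Gcnt4: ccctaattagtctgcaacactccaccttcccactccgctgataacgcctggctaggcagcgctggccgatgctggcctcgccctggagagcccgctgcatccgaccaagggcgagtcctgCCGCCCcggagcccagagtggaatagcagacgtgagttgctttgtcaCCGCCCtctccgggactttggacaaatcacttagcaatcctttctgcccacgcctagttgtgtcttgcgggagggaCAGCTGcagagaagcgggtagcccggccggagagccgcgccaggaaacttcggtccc
The *C1galt1* window was 82.7% G and C against a median of 52.7% over all windows, and held 52 CpG dinucleotides (median 7) and 6 GC boxes, of which the last pair overlap by 1 base. The *Gcnt1* window had the fewest CpG of the 4 shown, 2, and 2 matches to the TATA box, one on the gene's own strand from -244 relative to the first transcribed base and one on the opposite strand, printed as TTTATA, from -29. This window was chosen by its matches, and the *Gcnt1* windows not shown held no TATA box and had 16 and 3 CpG. The *Gcnt2* window held 2 CAGATG E-boxes and 1 GC box, and the *Gcnt4* window 2 GC boxes and 1 CAGCTG E-box. None of the 9 windows held TGACGTCA. Which start sites were used in these tissues was not measured, and the matches are letters in a window and not binding sites.

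Between the regions of wild-type mice, the core 2 transferase *Gcnt4* and the I-branching enzyme *Gcnt2* were lower in cerebellum and the other core 2 transferase, *Gcnt1*, was higher. Changes in *C1galt1* and *C1galt1c1* were smaller than 2-fold and of opposite sign. Calls needed an adjusted p under 0.05 and at least a 2-fold change, and 3 of the 5 genes were called in wild-type mice, 1 higher and 2 lower in cerebellum. Of all 16040 genes tested, 24.6% were called (10.5% higher and 14.1% lower). All 5 passed the adjusted p alone, as did 67.8% of genes tested. In only the mice whose names match between the sources, 2 per group, *C1galt1* (log2 fold change -0.43, adjusted p = 0.0696) and *C1galt1c1* (0.23, adjusted p = 0.198) no longer did in edgeR. In none of the 5 did the 4 cortex libraries overlap with the 4 cerebellum libraries in either genotype, which held for 65.9% of genes tested in wild-type and 61.8% in A391T mice. Levels are given in TPM, which corrects counts for the length of the gene and the depth of the library, so that genes can be compared with each other. Whether fewer cells express a gene or each cell holds less of its RNA cannot be told apart in tissue RNA.

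**Figure D1:**
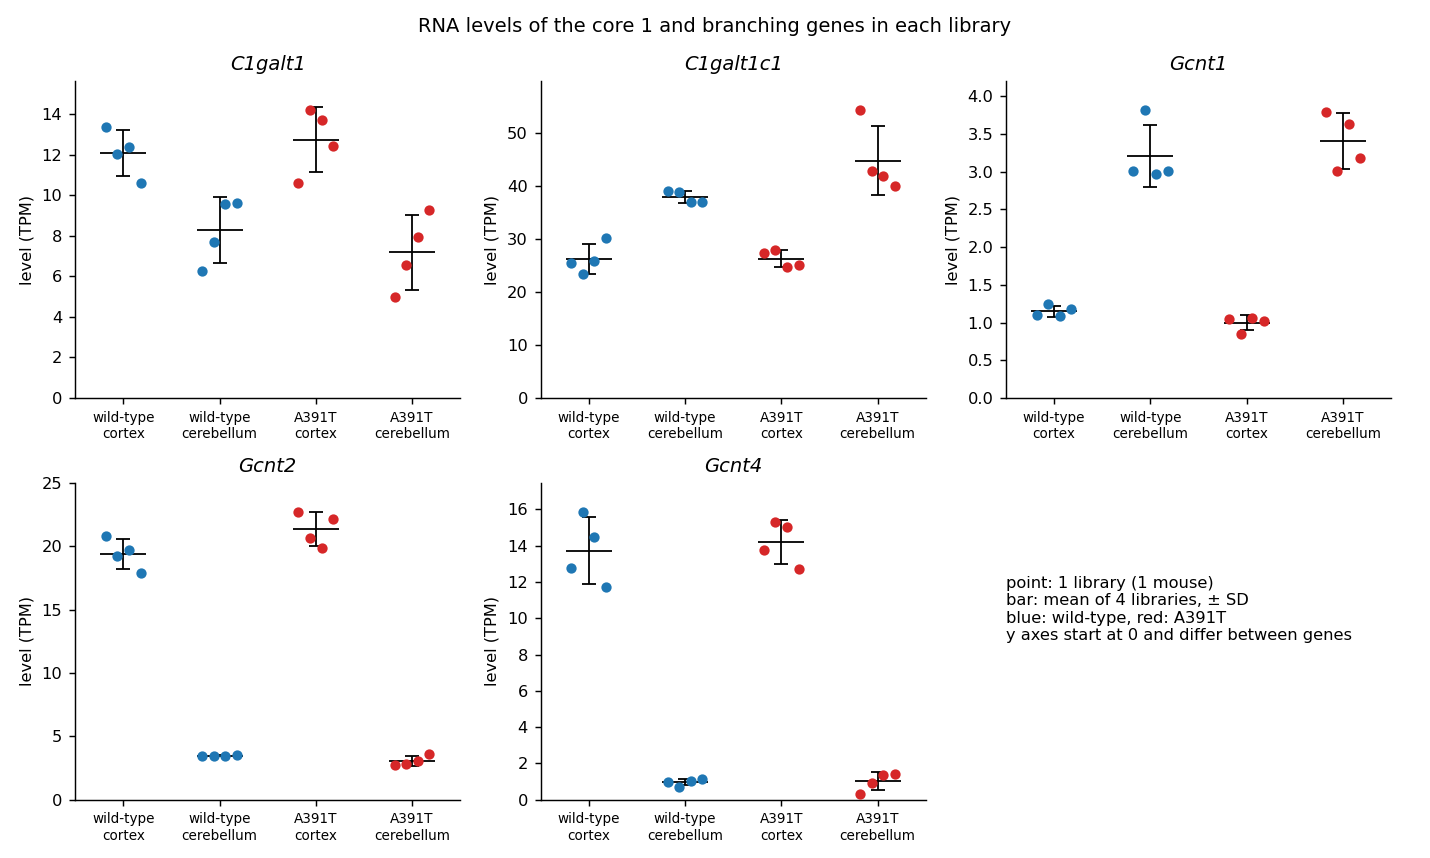
RNA level in TPM (linear y axes from 0, a different scale for each gene) of *C1galt1*, *C1galt1c1*, *Gcnt1*, *Gcnt2* and *Gcnt4* in the 16 libraries, by genotype and region. Points are libraries and bars the mean ± SD of 4. In each genotype *Gcnt2* and *Gcnt4* stand far lower in cerebellum, *Gcnt1* and *C1galt1c1* higher and *C1galt1* lower, with no overlap between regions.

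*C1galt1*, which makes core 1, had 13.4, 12.0, 12.4 and 10.6 TPM in the wild-type cortex libraries CTX447, CTX448, CTX479 and CTX480. In CBLM447, CBLM448, CBLM479 and CBLM480, from the cerebellum of the same mice, it had 6.25, 7.68, 9.57 and 9.63 TPM. The highest cerebellum library stood just below the lowest cortex library, CBLM480 and CTX480 of the same mouse. The mean level was 8.28 ± 1.63 TPM in cerebellum against 12.1 ± 1.14 TPM in cortex (SD, n = 4 each). On the scale of the test, *C1galt1* changed by a log2 fold change of -0.70 from cortex to cerebellum (SE 0.14, adjusted p = 0.000836, edgeR's quasi-likelihood test), short of a 2-fold change. Counts behind these levels were from 100 to 236 per library.

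*C1galt1c1*, the gene of the chaperone that T-synthase needs, had 25.4, 23.4, 25.9 and 30.1 TPM in the wild-type cortex libraries, again in the order CTX447, CTX448, CTX479 and CTX480. In cerebellum it had 39.1, 38.8, 36.9 and 36.9 TPM. Every cerebellum library was above every cortex library, and the cerebellum libraries lay closer together. Its mean rose from 26.2 ± 2.81 TPM to 37.9 ± 1.19 TPM (SD, n = 4 for both regions). The log2 fold change was 0.38 (SE 0.088, adjusted p = 0.00225 in edgeR), which is the smallest in size of the 5 genes and opposite in sign to that of *C1galt1*. Without CTX480 it was 0.46, and -0.76 for *C1galt1*.

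*Gcnt4*, a core 2 transferase, showed the largest regional difference of the 5. Its level was 12.8, 15.9, 14.5 and 11.7 TPM in CTX447, CTX448, CTX479 and CTX480, and 0.962, 0.727, 1.04 and 1.12 TPM in the cerebellum of the same mice. The cortex libraries did not overlap with any cerebellum library. The cortex libraries held from 358 to 648 counts and the cerebellum libraries from 25 to 36. The mean in cortex, 13.7 ± 1.84 TPM (SD, n = 4), was 14.3 times that in cerebellum, 0.962 ± 0.169 TPM (SD, n = 4). The log2 fold change was -3.98 (SE 0.14, adjusted p = 4.06e-10 in edgeR).

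*Gcnt1*, the core 2 transferase best known from blood cells, went the other way from a low level. It had 1.10, 1.24, 1.08 and 1.18 TPM in wild-type cortex and 3.01, 3.82, 2.97 and 3.01 TPM in wild-type cerebellum. Of the 4 cerebellum libraries 3 lay between 2.97 and 3.01 TPM, with CBLM448 above them. The mean rose from 1.15 ± 0.0742 TPM to 3.20 ± 0.411 TPM (SD, n = 4 each), a ratio of 2.78. The log2 fold change was 1.32 (SE 0.13, adjusted p = 2.39e-06 in edgeR), and 1.23 without CBLM448. The library CBLM479, whose choroid plexus markers were the lowest of its group at 52.5 TPM, had a *Gcnt1* level of 2.97 TPM, next to the 3.01 TPM of CBLM447 and CBLM480. Any part of choroid plexus RNA in the *Gcnt1* level was not tested.

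*Gcnt2*, the I-branching enzyme, had 20.8, 19.2, 19.7 and 17.9 TPM in wild-type cortex and 3.42, 3.45, 3.48 and 3.51 TPM in wild-type cerebellum. The 4 cerebellum libraries, with 139 to 146 counts each, lay closer together than those of any other of the 5 genes. The mean in cortex, 19.4 ± 1.20 TPM, was 5.60 times that in cerebellum, 3.46 ± 0.0379 TPM (SD, n = 4 each). The log2 fold change was -2.64 (SE 0.076, adjusted p = 8.35e-11 in edgeR).

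In A391T mice the same 3 genes were called, again 1 higher and 2 lower, against 24.7% of the 16005 genes tested there (9.8% higher and 14.9% lower). All 5 passed the adjusted p alone, as did 62.7% of those genes. *Gcnt4* had 13.7, 15.3, 15.0 and 12.7 TPM in CTX445, CTX446, CTX461 and CTX462 and 0.343, 0.941, 1.37 and 1.40 TPM in the cerebellum of the same mice, the lowest value being that of CBLM445 with 14 counts. Its log2 fold change was -3.95 (SE 0.27, adjusted p = 8.25e-07), and -3.66 without that library. *Gcnt2* had from 19.9 to 22.8 TPM in A391T cortex and from 2.73 to 3.62 TPM in A391T cerebellum. This was a log2 fold change of -2.91 (SE 0.10, adjusted p = 7.13e-09). *Gcnt1* had from 0.854 to 1.06 TPM in A391T cortex and from 3.00 to 3.79 TPM in A391T cerebellum, a log2 fold change of 1.67 (SE 0.14, adjusted p = 3.09e-06).

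*C1galt1* in A391T mice fell short of the 2-fold criterion by little, with a log2 fold change of -0.94 (SE 0.16, adjusted p = 0.00065). It had 10.6, 14.2, 13.7 and 12.4 TPM in CTX445, CTX446, CTX461 and CTX462 and 4.99, 6.54, 7.94 and 9.26 TPM in the cerebellum of the same mice. It passed the criterion without CTX445 (-1.02), without CBLM462 (-1.07) and with the libraries named as in the RPKM table (-1.09). *C1galt1c1* had from 24.7 to 28.0 TPM in A391T cortex and 54.4, 42.8, 41.8 and 40.0 TPM in A391T cerebellum. CBLM445 was the highest of these, and the log2 fold change of 0.68 (SE 0.13, adjusted p = 0.00124) was 0.53 without it. The adjusted p-values of this and the preceding paragraph are from edgeR's quasi-likelihood test.

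Cortex and cerebellum libraries share the mouse's number, so that each gene has a ratio of cerebellum to cortex within each of 8 mice. On the log2 scale of TPM, *Gcnt4* ranged from -5.32 to -3.18 with a median of -3.77, and *Gcnt2* from -3.06 to -2.35 with a median of -2.61. *C1galt1* ranged from -1.12 to -0.14 (median -0.72), nearest to 0 in the mouse of CTX480 and CBLM480. *C1galt1c1* ranged from 0.29 to 0.99 (median 0.65), and *Gcnt1* from 1.36 to 1.86 (median 1.63). Each gene had the same direction in 8 of 8 mice, and the mouse of CTX445 and CBLM445 had the most extreme ratio for *Gcnt4*, *Gcnt2*, *Gcnt1* and *C1galt1c1*.

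**Figure D2:**
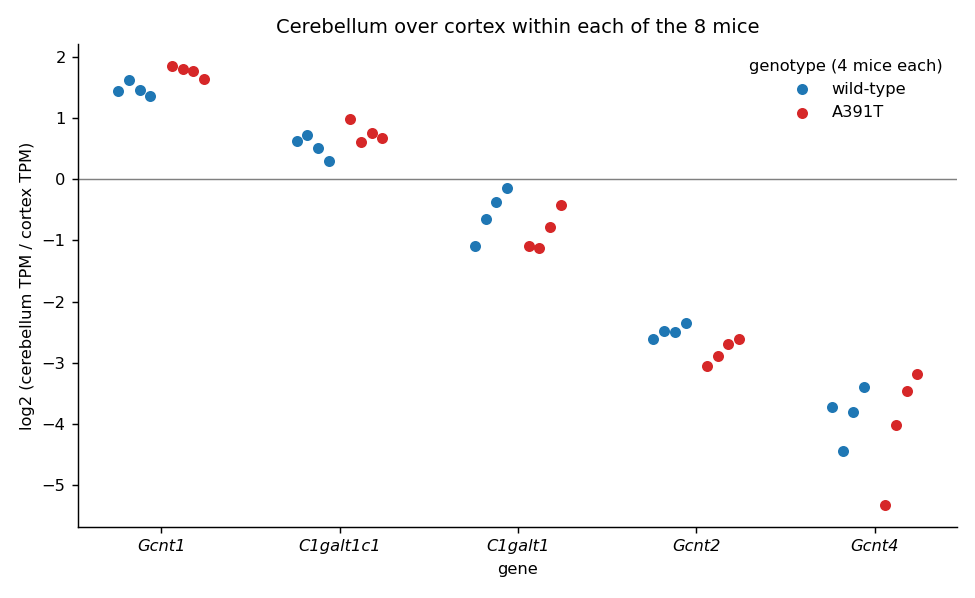
Log2 ratio of cerebellum to cortex TPM (y axis) within each mouse for the 5 genes (x axis), with 4 wild-type mice in blue and 4 A391T mice in red. Points of *Gcnt1* and *C1galt1c1* lie above 0 and those of *C1galt1*, *Gcnt2* and *Gcnt4* below 0 in all 8 mice, with *Gcnt4* between -5.32 and -3.18.

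The order of the 5 levels changed between the regions. In wild-type cortex it was *C1galt1c1*, *Gcnt2*, *Gcnt4*, *C1galt1* and *Gcnt1* from highest to lowest in 3 of 4 libraries, and *C1galt1* stood above *Gcnt4* in the other library. The ranges of *Gcnt4* and *C1galt1* overlapped, so that these neighbours did not differ beyond their spread, while *C1galt1* was 10.6 ± 1.46 times *Gcnt1* (SD, n = 4, and 5.94 ± 0.818 times with merged exon bases as the length, described below). In wild-type cerebellum the order was *C1galt1c1*, *C1galt1*, *Gcnt2*, *Gcnt1* and *Gcnt4* in 3 of 4 libraries. *Gcnt2* and *Gcnt1* overlapped there, and *Gcnt4*, in the middle of the order in cortex, was the lowest of the 5 in every cerebellum library. The order depends on gene length, and the length in the RPKM table exceeds the merged exon bases of the annotation for *Gcnt1* (9924 against 5583 bases) and *C1galt1c1* (2397 against 1449 bases), where overlapping exons of several transcripts are counted more than once in the *C1galt1c1* length. With merged exon bases, *Gcnt1* had 5.55 ± 0.712 TPM in wild-type cerebellum and stood above *Gcnt2* (3.38 ± 0.0374 TPM) in all 4 libraries, while the order in cortex stayed as given. Changes of 1 gene between the regions do not depend on its length.

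Ratios within a library compare the members with each other. The ratio of *C1galt1c1* to *C1galt1*, chaperone to client, was 1.90, 1.95, 2.09 and 2.83 in CTX447, CTX448, CTX479 and CTX480 and 6.26, 5.05, 3.86 and 3.83 in the cerebellum of the same wild-type mice. It rose from 2.19 ± 0.435 to 4.75 ± 1.16 (SD, n = 4 each), a log2 difference of 1.10 (two-sided exact permutation test, p = 0.0286, the smallest p that 4 against 4 libraries can give). This test takes the libraries as unpaired. With the regions exchanged only within mice the exact permutation p was 0.125 for this ratio, for the share of *Gcnt4* and for the ratio of core 2 to core 1 enzymes described next, in both genotypes. That is the smallest p that 4 pairs can give in this permutation, which could not pass the threshold here. CTX480 had the highest ratio of the wild-type cortex libraries, and the log2 difference was 1.23 without it. In A391T mice it was 2.09 ± 0.334 in cortex and 6.75 ± 2.90 in cerebellum, a log2 difference of 1.61 (exact permutation p = 0.0286). With merged exon bases the ratios were higher in both regions, at 3.63 ± 0.721 and 7.87 ± 1.91 in wild-type and 3.47 ± 0.553 and 11.2 ± 4.81 in A391T mice, with the same log2 differences. CBLM445 had the highest ratio, 10.9 with the lengths of the RPKM table and 18.0 with merged exon bases. Without it the log2 difference in A391T mice was 1.35.

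*Gcnt4* held most of the core 2 transferase RNA in cortex and a minority in cerebellum. Of the summed TPM of *Gcnt1* and *Gcnt4*, its share was 92.0%, 92.7%, 93.1% and 90.9% in wild-type cortex and 24.2%, 16.0%, 25.9% and 27.1% in wild-type cerebellum. The mean fell from 92.2% ± 0.962 to 23.3% ± 5.01 (SD, n = 4 each), a difference of -68.9 percentage points (exact permutation p = 0.0286). In A391T mice the share was 93.4% ± 0.949 in cortex and 22.5% ± 9.87 in cerebellum, where CBLM445 had 8.29%. With merged exon bases the wild-type share was 86.9% ± 1.51 in cortex and 14.7% ± 3.43 in cerebellum.

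Relative to the enzyme that makes core 1, RNA of the core 2 transferases was lower in cerebellum. The ratio of summed *Gcnt1* and *Gcnt4* to *C1galt1* was 1.04, 1.42, 1.26 and 1.21 in wild-type cortex and 0.635, 0.592, 0.419 and 0.429 in wild-type cerebellum. The log2 difference was -1.27 (exact permutation p = 0.0286) in wild-type and -0.93 in A391T mice (exact permutation p = 0.0286). Its size rests on the gene length, with -0.68 from merged exon bases and -0.58 from CPM, counts scaled to the library's depth without division by length, in wild-type mice (exact permutation p = 0.0286 for each). With merged exon bases in A391T mice it was -0.32 (exact permutation p = 0.143), which did not pass the threshold. CBLM445, at 1.42, lay there within the range of the cortex libraries, 1.17 to 1.47, and without it the regions did not overlap and the log2 difference was -0.49 (exact permutation p = 0.0571, the smallest p for 3 against 4).

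**Figure D3:**
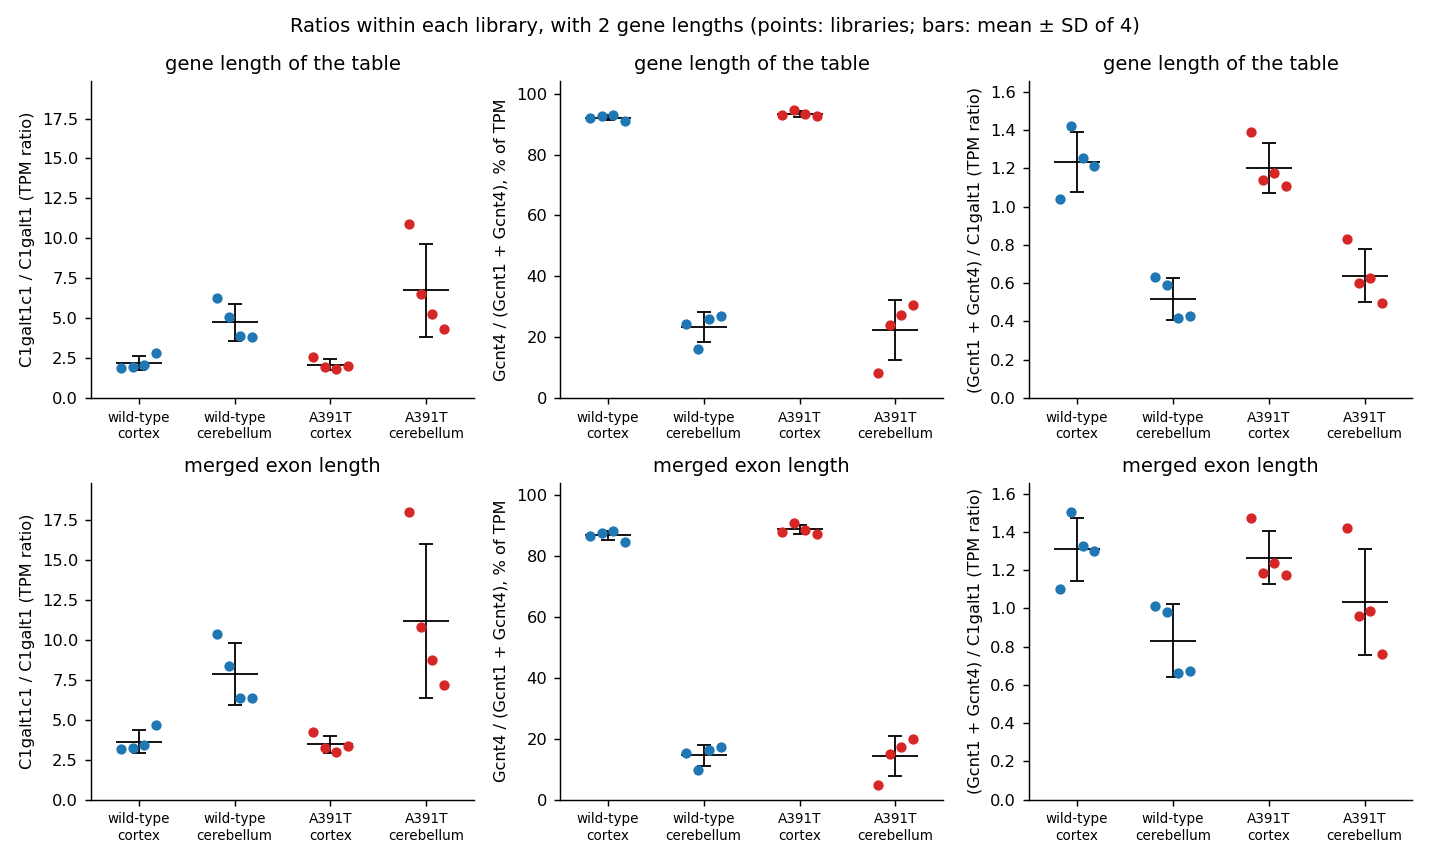
Ratio of *C1galt1c1* to *C1galt1* (left), share of *Gcnt4* in the summed TPM of *Gcnt1* and *Gcnt4* in % (middle) and ratio of that sum to *C1galt1* (right) in each of the 16 libraries, with the gene length of the RPKM table (upper row) and merged exon bases (lower row). Points are libraries and bars the mean ± SD of 4. The share of *Gcnt4* separates the regions widely with either length, whereas cerebellum approaches cortex in the ratio on the right with merged exon bases, at 0.831 ± 0.190 against 1.31 ± 0.165 in wild-type mice.

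Between A391T and wild-type mice no member was called in either region. In cortex, where 0.00632% of 15815 genes were called, the log2 fold changes of the 5 genes ran from -0.23 to 0.12. *Gcnt1* was the most negative, with 0.854 to 1.06 TPM in A391T against 1.08 to 1.24 TPM in wild-type cortex, ranges that do not overlap, as for 3.24% of genes tested (log2 fold change -0.23, SE 0.13, adjusted p = 1 in edgeR). With the libraries named as in the RPKM table this value was -0.034, and the 5 genes ran from -0.034 to 0.090, against -0.28 to 0.18 in only the matching mice. *Gcnt2* changed by 0.12 (SE 0.071), *C1galt1* by 0.05 (SE 0.11), *Gcnt4* by 0.03 (SE 0.092) and *C1galt1c1* by -0.02 (SE 0.094), each with an adjusted p of 1.

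In cerebellum 0 of 15668 genes were called by edgeR (0.0%), with 1326 at an unadjusted p under 0.05. *C1galt1c1* had from 40.0 to 54.4 TPM in A391T and from 36.9 to 39.1 TPM in wild-type cerebellum, which do not overlap, as for 7.83% of genes tested. Its log2 fold change was 0.30 (SE 0.13, adjusted p = 0.538) and was 0.14 without CBLM445, the library that stood apart. Under the RPKM table's names the ranges overlapped and the log2 fold change was 0.24, and in only the matching mice it was 0.53 (adjusted p = 0.486 in edgeR). The other 4 genes overlapped between the genotypes, with log2 fold changes of -0.16 for *C1galt1*, -0.13 for *Gcnt2*, 0.10 for *Gcnt4* and 0.15 for *Gcnt1* and adjusted p from 0.609 to 0.917. Without CBLM445 *C1galt1* was at -0.051, *Gcnt1* at 0.042, *Gcnt2* at -0.12 and *Gcnt4* at 0.37. With each library of either genotype left out in turn, *C1galt1* ran from -0.29 to -0.051 and *Gcnt1* from 0.042 to 0.25. *Gcnt2* then ran from -0.205 to -0.080 and *Gcnt4* from -0.094 to 0.37. The RPKM table's names gave -0.46 for *C1galt1* (SE 0.13) and -0.69 for *Gcnt4* (SE 0.27), the latter of opposite sign, each with an adjusted p of 0.551 in edgeR, with 0.16 for *Gcnt1* and -0.082 for *Gcnt2*. In only the matching mice *C1galt1* was at -0.62, *Gcnt4* at -0.67, *Gcnt1* at 0.31 and *Gcnt2* at -0.22. Under the RPKM table's names the ranges of *C1galt1* and *Gcnt4* did not overlap between the genotypes, as for 6.9% of genes tested. No member passed the threshold under either naming. The SE of *Gcnt4*, at 0.35 on the log2 scale, was the largest of the 5, with 14 to 44 counts per library.

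The difference of the region effect between the genotypes was tested over all 16 libraries, where edgeR called 0 of 16589 genes (0.0%), with 801 at an unadjusted p under 0.05. The interaction was -0.26 for *Gcnt2* (SE 0.12, adjusted p = 0.773), 0.36 for *Gcnt1* (SE 0.19, adjusted p = 0.773) and 0.31 for *C1galt1c1* (SE 0.16, adjusted p = 0.773). For *C1galt1* it was -0.23 (SE 0.22, adjusted p = 0.801) and for *Gcnt4* 0.05 (SE 0.32, adjusted p = 0.977). None of the 5 passed the adjusted threshold. Without CBLM445 the interaction was 0.15 for *C1galt1c1*, -0.11 for *C1galt1* and 0.34 for *Gcnt4*. With the RPKM table's names it was -0.49 for *C1galt1* and -0.79 for *Gcnt4* (adjusted p = 0.504 in edgeR for each), 0.27 for *C1galt1c1*, 0.19 for *Gcnt1* and -0.15 for *Gcnt2*. In only the matching mice it was -0.73 for *C1galt1*, -0.82 for *Gcnt4*, 0.55 for *C1galt1c1*, 0.57 for *Gcnt1* and -0.42 for *Gcnt2* (adjusted p = 0.542 in edgeR for each).

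**Figure D4:**
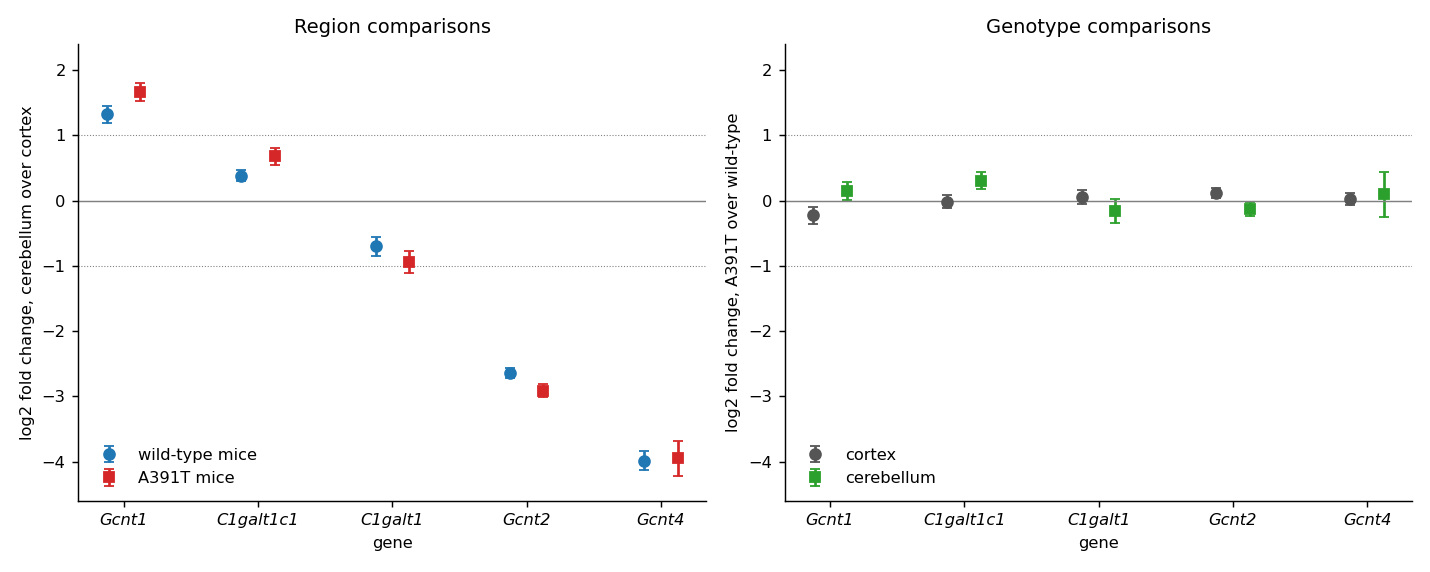
Log2 fold change ± SE from edgeR for the 5 genes (x axis), as cerebellum over cortex in each genotype (left) and A391T over wild-type in each region (right), with dotted lines at a 2-fold change. On the left *Gcnt1*, *Gcnt2* and *Gcnt4* lie past the lines in both genotypes, from 1.67 to -3.98, and on the right all 10 values lie between -0.23 and 0.30.

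Genes of the neighbouring steps were followed in wild-type mice by list. Of 19 polypeptide GalNAc transferases, which start O-GalNAc glycans, 17 were tested and 3 were called higher and 5 lower in cerebellum, with a median log2 fold change of -0.20, against 24.6% called (10.5% higher and 14.1% lower) and a median of 0.018 over all genes tested. *Galntl2* had the largest rise, from 4.19 to 37.2 TPM (log2 fold change 2.99), followed by *Galnt7* (1.70). *Galnt14* fell from 16.0 to 2.37 TPM (-2.90), *Galntl6* from 12.4 to 2.10 TPM (-2.71) and *Galnt3* from 1.09 to 0.193 TPM (-2.62), with a smaller fall of *Galntl1* (-1.17), one of the 3 most abundant. The most abundant, *Galnt9*, went from 166 TPM in cortex to 152 TPM in cerebellum (-0.28, adjusted p = 0.0166), under the 2-fold criterion, and *Galnt11* had 51.6 and 56.5 TPM (-0.021).

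Genes for the alternatives to core 1 and core 2 had low counts, at most 23 for *B3gnt6*, 2 for *Gcnt3* and 8 for *Gcnt7* in any library, and were not tested between the regions. *B3gnt6*, which makes core 3, had 0.859 ± 0.403 TPM in wild-type cortex and 0.580 ± 0.0494 TPM in wild-type cerebellum (SD, n = 4 each). *Gcnt3*, which makes core 2 and core 4 in mucin-secreting tissue, had means of 0.0181 and 0.0358 TPM, and the family member *Gcnt7* 0.192 and 0.299 TPM. Of 8 sialyltransferases listed as possible caps of core 1, 7 were tested. Of these, 1 was called higher and 2 lower in cerebellum (24.6% called over all genes), with a median of 0.05 (0.018 over all genes). Which of them act on core 1 in these tissues was not measured. *St6galnac5* fell from 46.5 to 3.31 TPM (log2 fold change -3.97, adjusted p = 6.52e-12) and *St3gal1*, which sialylates the galactose of core 1, from 19.6 to 6.63 TPM (-1.72), while *St6galnac4*, which sialylates its GalNAc, rose from 32.3 to 103 TPM (1.52). *St3gal2* and *St6galnac6*, the most abundant in cortex at 117 and 118 TPM, changed by 0.52 and -0.28, short of 2-fold.

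Of 9 genes for poly-N-acetyllactosamine chains, the acceptor of *Gcnt2*, 8 were tested and 1 was called, where 24.6% of all genes were. *B4galt2*, a galactosyltransferase of these chains, fell from 87.9 to 32.1 TPM in cerebellum (log2 fold change -1.60, adjusted p = 8.95e-09), and the list's median was -0.20. *B4galt3* and *B4galt4*, next in level at 32.6 and 24.1 TPM in cortex, changed by 0.064 and 0.16. None of 4 transporters that carry the sugar nucleotides into the Golgi was called, with the largest change, -0.75, in *Slc35b4*, against -0.24 in *Slc35a2* and 0.55 in *Slc35a3*. In A391T mice the region comparison called 4 higher and 5 lower of the GalNAc transferases, 1 higher and 2 lower of the sialyltransferases and 1 lower of the chain genes, against 24.7% called over all genes. The median of the GalNAc transferases was 0.033 there and that of the sialyltransferases -0.0755, each of opposite sign to that in wild-type mice. No gene of these lists was called between the genotypes or in the interaction.

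**Figure D5:**
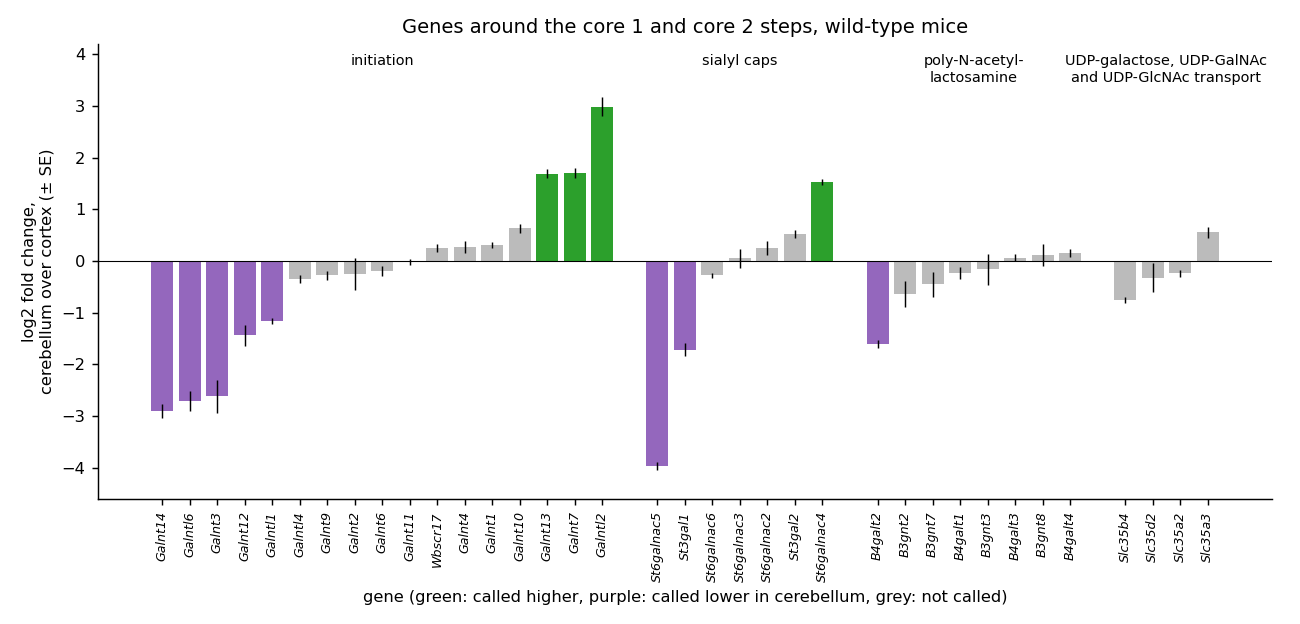
Log2 fold change of cerebellum over cortex in wild-type mice (y axis, ± SE) for the tested genes of the lists around the core 1 and core 2 steps (x axis), with genes called higher in cerebellum in green, called lower in purple and not called in grey. Calls run in both directions, from *Galntl2* at 2.99 to *St6galnac5* at -3.97.

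Among 15349 genes with a mean of at least 1 TPM, those whose pattern over the 16 libraries was most like each member were found by the root mean square difference of centred log2(TPM + 1). *Hrh3*, *Sprn* and *Agap2* came nearest to *Gcnt2*, at 0.0931, 0.110 and 0.115. *Tmem44*, *5330417C22Rik* and *Pxdn* came nearest to *Gcnt4* (0.129 to 0.137), and *Tctn3*, *Dlgap1* and *Magi1* to *C1galt1* (0.133 to 0.136). *Wdr8*, *Atg4d* and *Csad* came nearest to *Gcnt1* (0.0873 to 0.102), and *Trmt6*, *Dek* and *1110059E24Rik* to *C1galt1c1* (0.0602 to 0.0705). No member was among the 3 nearest of another. The added 1 TPM shrinks the changes of genes at low levels, so that genes near *Gcnt1* and *Gcnt4* can differ from them in fold change. In wild-type mice *Wdr8* went from 20.5 TPM in cortex to 41.0 TPM in cerebellum, against 1.15 and 3.20 TPM for *Gcnt1*. *Tmem44* went from 46.2 to 6.27 TPM, against 13.7 and 0.962 TPM for *Gcnt4*. The measure is a description, since the 16 libraries cover only 2 regions and share mice.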

How the data were processed

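RNA of 16 mouse brain libraries was measured by polyA-selected, directional RNA sequencing. The authors mapped reads to mm9 with STAR and deposited whole-number counts per Ensembl gene from HTSeq, made without regard to strand and not normalized. The authors also deposited RPKM values, of which only the gene names, gene lengths and the match of columns to libraries were used. Within each library, 10.21% to 13.17% of entries lay on no gene, 2.20% to 2.75% were ambiguous and 8.41% to 12.09% were not unique, and these stayed out of totals and tests.

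Low counts were removed with filterByExpr and libraries scaled by TMM, and genes were then compared by the quasi-likelihood test of edgeR 4.0.16 in R 4.3.3, and p-values were adjusted by Benjamini-Hochberg across every gene in the fit. Tested on simulated counts, it recovered 198 of 200 changed genes for the wild-type region comparison over 15864 genes. TPM was computed from counts and the deposited gene lengths with pandas 2.3.3 and numpy 2.4.6, and ratios within libraries were tested by exact permutation with scipy 1.17.1. Groups were taken from library titles. The replicates are separate mice, and the study states for the wild-type mice that both regions came from the same animals, while for the A391T mice only the shared numbers in the titles say so. Deviations of both regions of a mouse from their group means had correlations from -0.17 to 0.22, against -0.26 to 0.24 between different mice.

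Every one of the 5 genes is named, with up to 5 called genes of largest change and the 3 highest mean levels in wild-type mice per list. The genes, lists and tests were chosen with earlier results of these data known. Alternatives were RLE factors, library totals, DESeq2 1.42.0, other filters, the exact test of edgeR, a test against 2-fold, all 16 libraries in one model, the mouse as a block, the library names of the RPKM table and each library left out. Merged exon bases, the A391T ratios without CBLM445 and the permutation within mice were added after seeing the data.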

Additional observations from a re-analysis of the deposited data

Results flagged for a closer look

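The level of *Gcnt1* in wild-type cerebellum was 3.82 TPM in CBLM448, far from the 3.01 TPM of the nearest of the other 3 libraries, with a gap of 0.949 of the group's whole range, above Dixon's critical value for 4 samples. Among 32 groups of 4 libraries checked in this way it was the 1 that passed, and chance passes about 1 in 20. The same library had 256 counts on *Gcnt1* and the highest summed choroid plexus markers of its group, 8060 TPM, whose part in the level was not tested.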

How the results depend on the processing

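Calls of *Gcnt1*, *Gcnt2* and *Gcnt4* between the regions, and their directions, held under every alternative run in both genotypes. Without the fold criterion the number of the 5 genes called between the regions was 5 in wild-type and 5 in A391T mice, which adds *C1galt1* (-0.70 and -0.94) and *C1galt1c1* (0.38 and 0.68). In only the mice whose names match, 2 per group, these 2 genes lost the adjusted p in wild-type mice (-0.43 and 0.23). *C1galt1* passed the 2-fold criterion in A391T mice under the RPKM table's names (-1.09), with these and the mouse as a block (-1.09) and in only the mice whose names match (-1.18), and leaving out 1 library moved it from -1.07 to -0.82. With the mouse as a block under the titles, no call changed (*Gcnt4* -3.98, *Gcnt2* -2.64 and *Gcnt1* 1.32 in wild-type mice). The genotype difference of *Gcnt4* in cerebellum turned to -0.69 under the RPKM table's names and -0.67 in only the matching mice. Its interaction turned to -0.79 under the RPKM table's names, -0.80 with these names and the mouse as a block, and -0.82 in only the matching mice. None of these passed the threshold, and the cause was not tested. Leaving out 1 library moved those values of *Gcnt4* from -0.094 to 0.37 and from -0.14 to 0.34, and in cortex *Gcnt4* from -0.029 to 0.098 and *C1galt1c1* from -0.076 to 0.072.

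For the ratios, 3 against 4 libraries allow no p below 0.0571. Leaving out 1 wild-type library moved the log2 difference of *C1galt1c1* to *C1galt1* from 0.96 to 1.23, the *Gcnt4* share from -70.1 to -66.4 points and the core 2 to core 1 ratio from -1.37 to -1.17. In A391T mice without CBLM445 these were 1.35, -66.1 points and -1.06. With merged exon bases in A391T mice the core 2 to core 1 ratio was -0.32 with CBLM445 included, and without it the 3 differences were 1.35, -71.4 points and -0.49. With the mouse as a block, by exchange within mice, the differences were by construction those of the unpaired test (1.10, -68.9 points and -1.27 in wild-type and 1.61, -70.9 points and -0.93 in A391T mice), but 4 pairs allow no p below 0.125. Of the 10 mean levels in wild-type mice, 5 moved by over 1 SD with merged exon bases, 2 under the RPKM table's names and 2 with TPM rescaled by TMM factors, while CPM is another unit in which all 10 differ. *Gcnt4* in cerebellum rests on 14 to 44 counts per library, which limits its precision.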
